A study of Mus musculus with 18 samples.

Results

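The 38 mouse genes described here encode antiviral proteins that cells make after sensing type I interferon, and were taken from a given list of symbols. All 38 were found among the 55536 Ensembl gene identifiers of the count table, and all 38 were among the 15204 genes that passed a filter on low counts. They were followed in every library of 6 groups and ranked by how far W131A alone and the loss of Cbl-b alone set them apart. Type I interferons bind a receptor made of IFNAR1 and IFNAR2, whose kinases TYK2 and JAK1 activate the transcription factor complex ISGF3. This complex, of which IRF9 is a part, binds the interferon-stimulated response element (ISRE) in promoters and switches on RNA sensors, RNA-degrading enzymes, the ubiquitin-like modifier ISG15 and proteins that block viral entry or replication. Resting T cells transcribe many of these genes at a tonic level, and interferon-gamma, acting through another site (GAS), induces a partly shared set.

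RNA was sequenced from CD4 T cells of C57BL/6 mice, which in all groups carry the OTII transgene, whose T cell receptor recognises a peptide of ovalbumin. W131A is a change in ZAP-70, a kinase of that receptor, that loosens its autoinhibition, and the series uses it as a genetic model of anergy, an unresponsive T cell state. Cbl-b, a ubiquitin ligase, dampens signalling from the receptor, and the series asks what it controls in anergic cells. There were 6 groups of 3 libraries. Naive (CD44 low, CD62L positive, CD25 negative, Va2 positive) CD4 cells came from spleen and lymph nodes of mice with neither change (OTII), W131A alone (W131AOTII), Cbl-b loss alone (Cbl-b-/- OTII) or both changes (Cbl-b-/-W131AOTII). Thymocytes, sorted for CD4 alone, Va2 and no CD25, came from OTII and W131AOTII mice. The labels count 3 OTII, 12 W131AOTII (4 per group), 3 Cbl-b-/- and 6 Cbl-b-/-W131AOTII mice (2 per group), so libraries with W131A may hold pooled animals. No source used here gives ages, or says which cells lack Cbl-b.

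Libraries held 19708218 to 36218772 counts. Levels are in counts per 1e+06 (CPM) on library sizes scaled by edgeR's trimmed mean of M values (TMM). Cblb was at 122 to 177 CPM in the 6 peripheral libraries with Cbl-b and at 51.0 to 111 CPM in the 6 labelled Cbl-b-/-, so RNA of the targeted gene was lower but still counted. A gene count cannot check W131A, a substitution. The 6 CD4 T cell markers were counted in every library. Peripheral W131AOTII replicate 2 stood apart, with 4990 CPM of 8 B cell markers and 769 CPM of 11 myeloid markers, against at most 2540 and 204 CPM in the other peripheral libraries. Cbl-b-/- OTII replicate 2 and thymic OTII replicate 3 had also stood apart in an earlier look at these data, and the counts led with were run without all 3. In bulk RNA, fewer cells of a type and less RNA per cell cannot be told apart. Below, 3 values of a group are those of replicates 1, 2 and 3.

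RefSeq (GRCm38.p6) lists a promoter window, from 250 bases before to 50 after the gene start, for 29 of the 38 genes, the others being Oas2, Usp18, Mx1, Dhx58, Ifi27l2a, Parp9, Parp14, Zbp1 and Rtp4. Both strands were searched for the ISRE core GAAANNGAAA and the GAS core TTCNNNGAA, which reads the same on both. The ISRE core was present in 15 of the 29 genes (51.7%), against 3.99% of the 27025 genes with a window. The GAS core was present in 8 of the 29 (27.6%), against 9.55%. Printed here are the 250 bases before the start of 5 genes. Rsad2 and Ifit3 fell by over 2 on the log2 scale when Cbl-b was lost in W131A cells, Oas3 is near the top of the ranking and Ube2l6 at its bottom. Isg15, in the middle of the ranking, was chosen after its values were seen. Capitals mark ISRE core matches on either strand.
Rsad2, chr12:26456453-26456702, minus strand: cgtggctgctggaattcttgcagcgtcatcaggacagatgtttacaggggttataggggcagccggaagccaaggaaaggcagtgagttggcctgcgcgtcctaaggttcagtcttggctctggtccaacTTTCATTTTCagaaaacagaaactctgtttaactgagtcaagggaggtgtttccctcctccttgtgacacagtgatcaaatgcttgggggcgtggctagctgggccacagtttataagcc
Ifit3, chr19:34583279-34583528, plus strand: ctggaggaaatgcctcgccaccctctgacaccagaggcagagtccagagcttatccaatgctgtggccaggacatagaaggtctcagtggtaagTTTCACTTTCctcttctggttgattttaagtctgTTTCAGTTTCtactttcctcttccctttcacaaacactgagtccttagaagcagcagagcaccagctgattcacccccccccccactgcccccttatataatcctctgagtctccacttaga
Isg15, chr4:156200819-156201068, minus strand: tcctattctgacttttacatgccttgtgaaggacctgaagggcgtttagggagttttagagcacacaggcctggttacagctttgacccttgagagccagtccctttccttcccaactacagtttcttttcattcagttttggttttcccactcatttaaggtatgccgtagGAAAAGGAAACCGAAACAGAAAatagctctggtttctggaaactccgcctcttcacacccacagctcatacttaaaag
Oas3, chr5:120777660-120777909, minus strand: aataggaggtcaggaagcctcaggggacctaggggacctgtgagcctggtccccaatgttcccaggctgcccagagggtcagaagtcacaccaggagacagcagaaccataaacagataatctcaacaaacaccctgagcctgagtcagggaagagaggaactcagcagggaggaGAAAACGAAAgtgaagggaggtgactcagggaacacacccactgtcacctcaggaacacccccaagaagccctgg
Ube2l6, chr2:84798578-84798827, plus strand: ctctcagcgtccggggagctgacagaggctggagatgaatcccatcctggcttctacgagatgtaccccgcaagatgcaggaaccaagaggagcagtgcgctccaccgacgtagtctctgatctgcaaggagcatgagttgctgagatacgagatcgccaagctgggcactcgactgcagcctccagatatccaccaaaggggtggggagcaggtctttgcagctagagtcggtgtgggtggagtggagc
The Isg15 stretch holds 3 overlapping matches on the gene strand, from 78 to 57 bases before the start. Ifit3 holds 2 on the other strand, at 156 to 147 and 122 to 113 bases before it. Rsad2 and Oas3 hold 1 each, at 120 to 111 and 75 to 66 bases. The letters of the core are not in the window of Ube2l6. Ifitm3, first in the ranking, has 2 matches just after its start, at bases 2 to 11 and 19 to 28. Of the 28 genes that fell on loss of Cbl-b in W131A cells (below), 22 had a window and 13 of these held the core, as did 2 of the other 7. A match describes letters and is no evidence of binding.

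**Figure D1:**
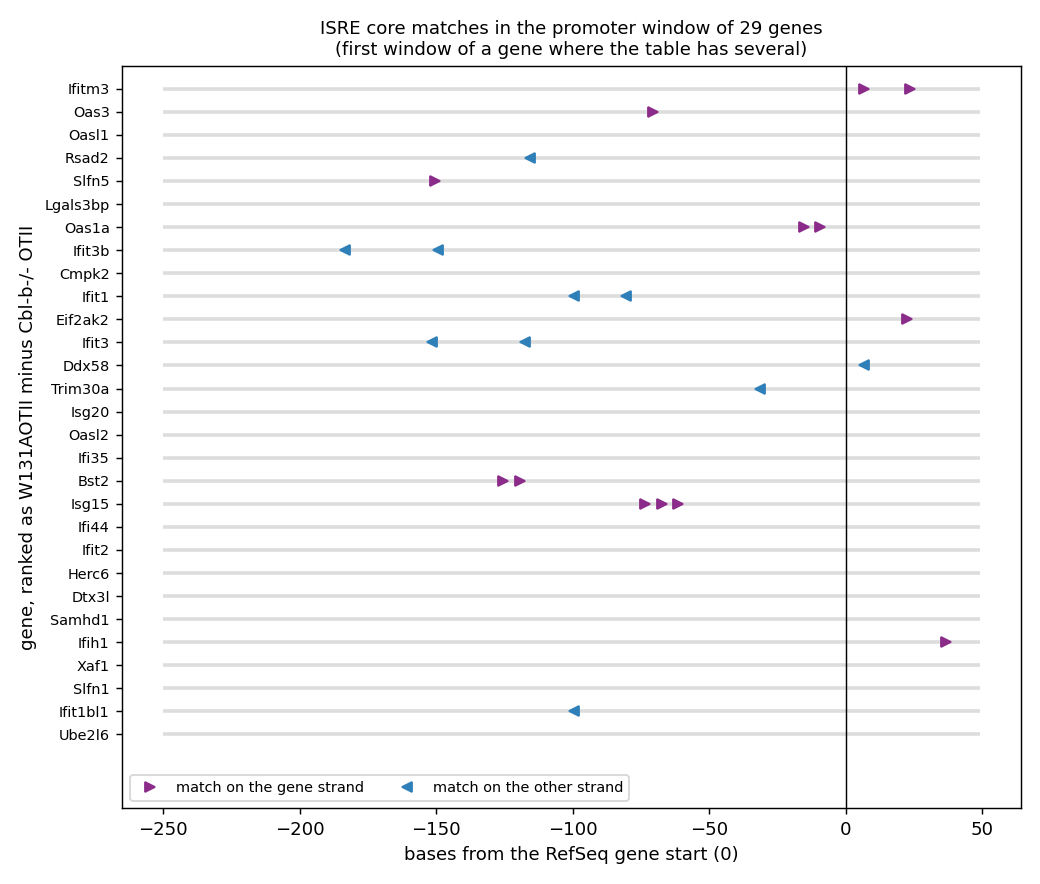
Places of ISRE core matches (triangles, pointing right on the gene strand and left on the other strand) along the window from 250 bases before to 49 after the first base of the gene (0), for the 29 genes with a RefSeq window (the first of a gene where several are listed), ordered by the ranking of W131AOTII against Cbl-b-/- OTII. Matches occur in 15 genes, from Ifitm3 and Oas3 at the top of the ranking to Ifit1bl1 near its bottom.

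Several of the genes lie side by side. Ifit2, Ifit3, Ifit1bl1, Ifit3b and Ifit1 occupy chr19:34550694-34650009 (GRCm38), and Parp14, Dtx3l and Parp9 chr16:35832874-35972605. Rsad2 and Cmpk2 lie at chr12:26442746-26479837, Oasl2 and Oasl1 at chr5:114896936-114937915, and Oas2 and Oas3 at chr5:120730333-120777661. Reads of 50 bases cannot always tell a gene from its copy. Of the 50-base stretches of Oas1a transcripts, 57.6% also occur in another gene, most of them in Oas1g. For Ifit3 the share was 51.2%, most of it with Ifit3b, and for Ifit3b it was 45.0%. In each of the other 35 genes it was at most 12.5%. Parp9 and Dtx3l overlap on opposite strands, as do Parp9 and Gm15564, which had 102522 counts against 127437 for Parp9. So do Eif2ak2 and Gm26637, which had 4517 counts against 16210 for Eif2ak2. Whether counting used strand is not known here, so these counts may mix.

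Per kilobase of exon, the mean level in peripheral OTII ran from 3.92 CPM per kb for Herc6 to 538 for Ifi27l2a. Slfn1 (211), Ifit1 (138), Bst2 (129), Lgals3bp (124), Ifit1bl1 (119) and Zbp1 (111) followed Ifi27l2a. After Herc6 the lowest were Ifih1 (4.67), Mx1 (4.76), Eif2ak2 (5.54) and Ifi44 (8.10).

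Cells with both changes had the lowest mean of the 6 groups for 29 of the 38 genes, and a thymic group had it for the other 9. How often this holds over all genes was not counted. On loss of Cbl-b in W131A cells (Cbl-b-/-W131AOTII minus W131AOTII), 28 of the 38 genes fell and 0 rose, while 6.08% of all genes tested fell and 3.18% rose (edgeR quasi-likelihood test, Benjamini-Hochberg adjusted p under 0.05 over 15204 genes). The median log2 fold change of the 38 was -1.03, against 0.03 over all genes. Ifitm3, Rsad2, Ifit3b, Oas3, Ifit3 and Isg15 fell most, by 2.00 to 3.31 on the log2 scale. The 10 that did not pass were Ifi27l2a, Rtp4, Ifih1, Ifit2, Parp9, Dtx3l, Herc6, Slfn1, Samhd1 and Ifit1bl1, with values from -0.96 (Ifi27l2a) to 0.13 (Ifit1bl1). At an unadjusted p under 0.05, 34 were lower and 0 higher, a count not made over all genes. DESeq2 called 31 lower and 0 higher, against 1446 and 823 of 29797 genes. On library size alone in place of TMM, 23 fell, the calls of Ube2l6, Ddx58, Parp14, Ifi35 and Trim30a being lost, and 0 rose, with a median of -0.88. That scaling moved the median of all genes to 0.18 and their split from 483 higher and 924 lower to 960 and 531.

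Against OTII cells with neither change, cells with both had 16 of the 38 lower (3.52% of all genes were lower) and 1, Samhd1, higher (3.87% of all genes were higher), with a median of -0.52 against 0.04 over all genes. Library size alone gave 833 higher and 339 lower of all genes in place of 588 and 535. In a fit of only these 2 groups, 26 of the 38 (68.4%) and 28.0% of all genes were called, against 44.7% and 7.39% here. Of the 17 calls, 13 held whichever of the 6 libraries was left out. Those of Isg20 and Usp18 were lost in each such fit (adjusted p up to 0.144 and 0.153), that of Isg15 without Cbl-b-/-W131AOTII replicate 1 (0.0503) and that of Ifi44 in 4 of the 6 (up to 0.0869). Without the 3 libraries that stood apart, 18 were lower and 1 higher. None of those libraries is in the groups compared here. That fit changed only the filter, scaling and shared dispersion, and cannot test outlying libraries in this comparison. Without any test, all 3 libraries with both changes lay below all 9 other peripheral libraries for 22 of the 38, against 3.42% of all genes, and above all 9 for 0, against 2.94%.

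**Figure D2:**
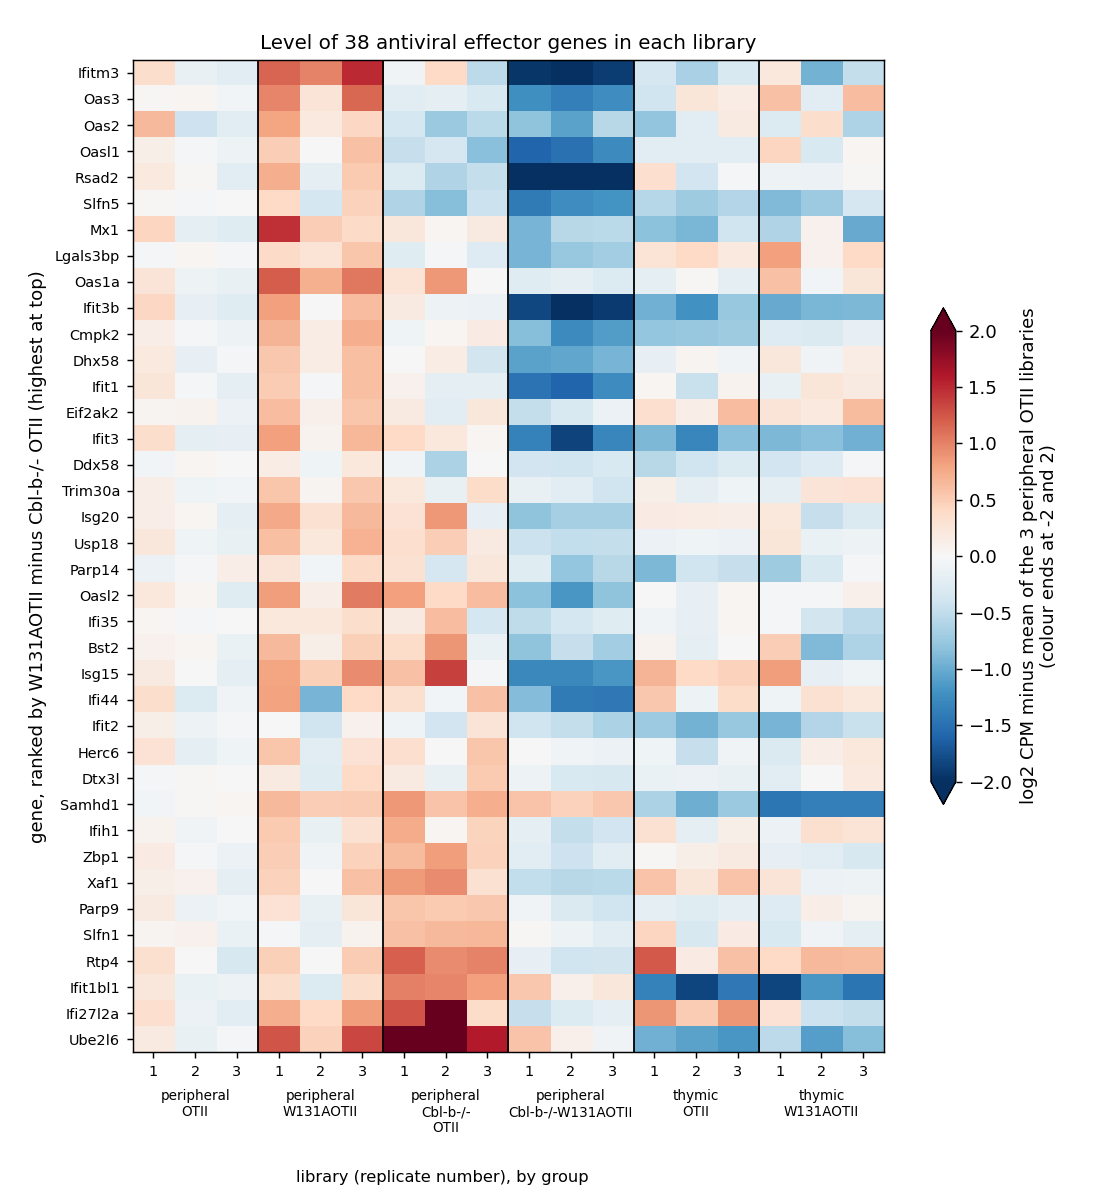
Level of each of the 38 genes (1 line each, ranked by W131AOTII minus Cbl-b-/- OTII) in each of the 18 libraries (columns, by group and replicate), as log2 CPM minus the mean of the 3 peripheral OTII libraries; the colour scale ends at -2 and 2. The 3 Cbl-b-/-W131AOTII libraries are blue for most genes, with library medians of -0.50, -0.53 and -0.55.

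By group mean, cells with both changes were the lowest of the 4 peripheral groups for 35 of the 38 genes, and OTII for the other 3. W131AOTII was the highest for 22, Cbl-b-/- OTII for 15 and OTII for 1. These orders were not counted over all genes. The median deviation of the 38 from peripheral OTII was 0.58, 0.06 and 0.53 on the log2 scale in the W131AOTII libraries and 0.28, 0.10 and 0.18 in the Cbl-b-/- OTII libraries. W131AOTII replicate 2 was the lowest of its group for 36 of the 38 genes and for 31.1% of all genes. It is the library with the most B cell and myeloid marker RNA, whose part in this was not tested.

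The IFIT proteins bind foreign RNA and block its translation. Ifit1, which binds RNA whose cap lacks a methyl group, was counted at 430, 353 and 318 CPM in OTII, 516, 353 and 550 with W131A alone, 387, 322 and 321 with Cbl-b loss alone and 130.6, 122 and 153 with both changes. In the thymus Ifit1 was at 376, 266 and 384 CPM (OTII) and 330, 431 and 413 CPM (W131AOTII). The 3 libraries with both changes lay below every other library. Ifit1 fell by 1.81 on the log2 scale (SE 0.18, adjusted p = 9.98e-06) on loss of Cbl-b in W131A cells, and was lower by 1.44 on the log2 scale (SE 0.18, adjusted p = 6.05e-05) than in OTII. Ifit3, of the same family, stood at 150, 104 and 105 CPM in OTII, 209, 124 and 187 with W131A alone, 155, 136 and 121 with Cbl-b loss alone and 45.8, 32.5 and 47.6 with both changes. In the thymus Ifit3 was at 63.4, 47.4 and 65.9 CPM (OTII) and 63.3, 66.2 and 60.4 CPM (W131AOTII). With both changes it reached at most the lowest thymic levels, while every other peripheral library was above all thymic ones. Ifit3 fell by 2.04 on the log2 scale (SE 0.20, adjusted p = 9.98e-06) on loss of Cbl-b in W131A cells. Ifit3b, its near copy, gave 57.6, 38.5 and 36.6 CPM in OTII, 76.1, 43.6 and 66.6 with W131A alone, 48.96, 40.4 and 40.0 with Cbl-b loss alone and 12.3, 9.75 and 11.4 with both changes. In the thymus Ifit3b was at 22.1, 18.6 and 25.7 CPM (OTII) and 21.6, 23.0 and 23.2 CPM (W131AOTII). Again the group with both changes did not overlap any other, and Ifit3b fell by 2.48 on the log2 scale (SE 0.21, adjusted p = 1.9e-06). Reads shared between Ifit3 and Ifit3b may enter both values.

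Ifit2, another gene of the IFIT family, had 174, 149 and 158 CPM in OTII, 158, 122 and 169 with W131A alone, 151, 123 and 190 with Cbl-b loss alone and 121, 115 and 103 with both changes. In the thymus Ifit2 was at 96.2, 83.2 and 94.4 CPM (OTII) and 83.8, 107 and 117 CPM (W131AOTII). The libraries with both changes were the lowest of the periphery, but the difference from W131A alone did not pass (log2 fold change -0.40, SE 0.16, adjusted p = 0.113). Ifit1bl1, an Ifit1-like gene of the same cluster, showed another order, with 313, 244 and 249 CPM in OTII, 340, 221 and 342 with W131A alone, 534, 527 and 472 with Cbl-b loss alone and 390, 287 and 314 with both changes. In the thymus Ifit1bl1 was at 104, 74.3 and 99.5 CPM (OTII) and 75.04, 118 and 97.3 CPM (W131AOTII). The Cbl-b-/- OTII libraries were the 3 highest of all 18, and every peripheral library was above every thymic one. Loss of Cbl-b in W131A cells gave 0.13 (SE 0.19, adjusted p = 0.693).

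Rsad2 (viperin, which makes the chain-terminating nucleotide ddhCTP) and its neighbour Cmpk2 (a nucleotide kinase) both fell on loss of Cbl-b in W131A cells. Rsad2 was at 55.8, 49.4 and 42.1 CPM in OTII, 80.4, 43.2 and 69.9 with W131A alone, 40.3, 32.2 and 35.0 with Cbl-b loss alone and 11.5, 11.7 and 10.4 with both changes. In the thymus Rsad2 was at 61.4, 37.3 and 47.2 CPM (OTII) and 45.5, 45.0 and 49.6 CPM (W131AOTII). The lowest library outside the group with both changes was at 32.2 CPM. Rsad2 fell by 2.53 on the log2 scale (SE 0.21, adjusted p = 1.9e-06) on loss of Cbl-b in W131A cells and was lower by 2.13 on the log2 scale (SE 0.21, adjusted p = 3.47e-06) than in OTII. Cmpk2 had 84.3, 74.7 and 71.8 CPM in OTII, 123, 85.1 and 127 with W131A alone, 72.5, 78.9 and 86.3 with Cbl-b loss alone and 42.5, 31.6 and 35.2 with both changes. In the thymus Cmpk2 was at 44.8, 45.2 and 47.0 CPM (OTII) and 63.8, 62.6 and 68.2 CPM (W131AOTII). The group with both changes did not overlap any other, and Cmpk2 fell by 1.62 on the log2 scale (SE 0.15, adjusted p = 4.57e-06).

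Samhd1, a hydrolase that lowers the pool of DNA precursors, showed another order, with 327, 348 and 349 CPM in OTII, 534, 481 and 487 with W131A alone, 624, 504 and 564 with Cbl-b loss alone and 509, 471 and 498 with both changes. In the thymus Samhd1 was at 220, 173 and 204 CPM (OTII) and 126, 132 and 133 CPM (W131AOTII). All 9 peripheral libraries with either change were above all 3 OTII libraries, and all peripheral above all thymic ones. Samhd1 rose by 0.72 on the log2 scale (SE 0.11, adjusted p = 0.000787) on loss of Cbl-b in OTII and by 0.53 on the log2 scale (SE 0.11, adjusted p = 0.00707) with both changes. Its value on loss of Cbl-b in W131A cells was -0.02 (SE 0.11, adjusted p = 0.916).

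OAS enzymes make 2-5A, which activates RNase L, the OASL proteins act in RNA sensing, and Isg20 is an exonuclease; all 6 genes of this group fell on loss of Cbl-b in W131A cells. Oas3 was at 110, 112 and 104 CPM in OTII, 214, 129 and 241 with W131A alone, 93.8, 95.6 and 87.3 with Cbl-b loss alone and 46.3, 41.9 and 45.7 with both changes. In the thymus Oas3 was at 82.3, 129 and 121 CPM (OTII) and 163, 93.1 and 166 CPM (W131AOTII). Within the periphery the W131AOTII libraries were the highest and those with both changes the lowest, and Oas3 fell by 2.12 on the log2 scale (SE 0.22, adjusted p = 1.52e-05). Oas1a gave 33.6, 26.2 and 25.4 CPM in OTII, 65.0, 46.1 and 58.5 with W131A alone, 33.9, 51.5 and 28.2 with Cbl-b loss alone and 23.8, 24.5 and 23.2 with both changes. In the thymus Oas1a was at 24.5, 28.7 and 24.6 CPM (OTII) and 42.3, 27.0 and 33.5 CPM (W131AOTII). Oas1a fell by 1.25 on the log2 scale (SE 0.20, adjusted p = 0.00217), to just under the OTII libraries, and its reads may include Oas1g. Oas2 varied more within groups, at 120, 57.6 and 65.9 CPM in OTII, 134, 88.1 and 102 with W131A alone, 60.6, 46.3 and 53.1 with Cbl-b loss alone and 44.2, 36.8 and 52.6 with both changes. In the thymus Oas2 was at 44.5, 66.9 and 87.2 CPM (OTII) and 64.0, 98.3 and 50.0 CPM (W131AOTII). The OTII libraries span 2 of the 3 W131AOTII libraries. Oas2 fell by 1.28 on the log2 scale (SE 0.28, adjusted p = 0.0135) on loss of Cbl-b in W131A cells, a call that was lost without Cbl-b-/-W131AOTII replicate 1 or 2 (adjusted p up to 0.0722).

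Oasl1 had 82.2, 74.2 and 70.7 CPM in OTII, 107, 75.8 and 114 with W131A alone, 55.2, 59.8 and 42.4 with Cbl-b loss alone and 25.1, 26.8 and 31.1 with both changes. In the thymus Oasl1 was at 65.2, 64.6 and 64.3 CPM (OTII) and 102, 60.9 and 77.5 CPM (W131AOTII). Here Cbl-b-/- OTII was already below OTII without overlap, and the group with both changes was lower still. Oasl1 fell by 1.84 on the log2 scale (SE 0.18, adjusted p = 9.98e-06) on loss of Cbl-b in W131A cells and was lower by 1.45 on the log2 scale (SE 0.18, adjusted p = 6.34e-05) than in OTII. Oasl2 had 134, 119 and 98.1 CPM in OTII, 208, 127 and 239 with W131A alone, 205, 153 and 179 with Cbl-b loss alone and 65.7, 52.0 and 66.6 with both changes. In the thymus Oasl2 was at 117, 104 and 119 CPM (OTII) and 113, 115 and 124 CPM (W131AOTII). All Cbl-b-/- OTII libraries and 2 of 3 W131AOTII libraries were above every OTII library, and those with both changes below all 15 others. Oasl2 fell by 1.64 on the log2 scale (SE 0.19, adjusted p = 4.32e-05). Isg20 ranged from 42.0 to 134 CPM over the peripheral libraries and fell by 1.29 on the log2 scale (SE 0.21, adjusted p = 0.00173).

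**Figure D3:**
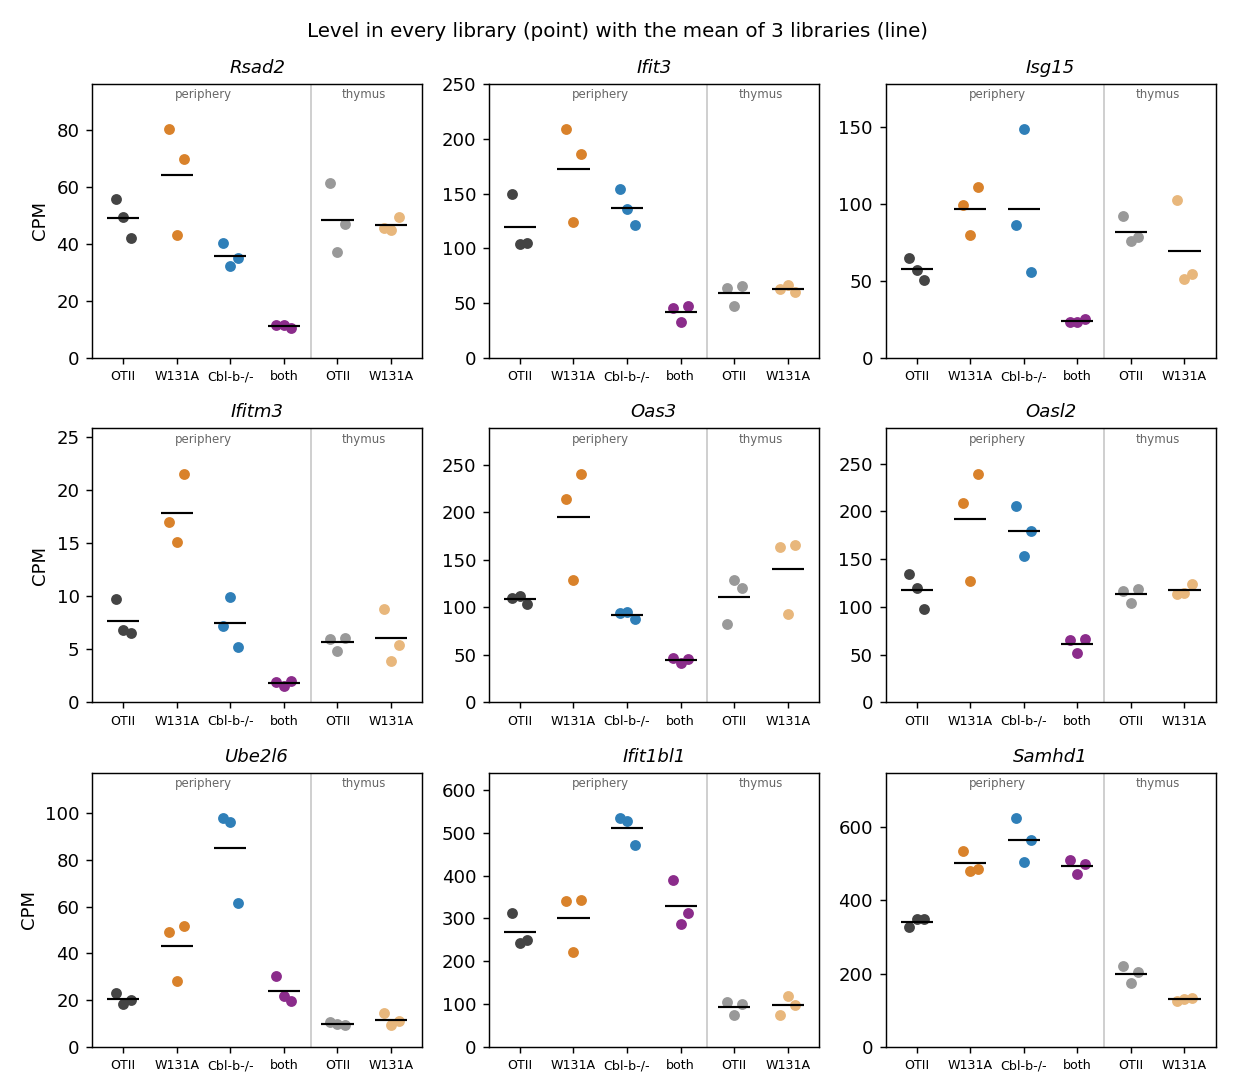
CPM of 9 genes in every library (points, replicates 1 to 3 from left to right within a group) with the mean of 3 libraries (lines), in the 4 peripheral groups (OTII, W131A alone, Cbl-b loss alone, both) and the 2 thymic groups; each vertical axis starts at 0. Rsad2, Ifit3, Isg15, Ifitm3, Oas3 and Oasl2 are lowest with both changes, Ube2l6 and Ifit1bl1 are highest with Cbl-b loss alone, and Samhd1 is above OTII in the other 3 peripheral groups.

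ISG15 is attached to proteins by the E2 enzyme UBE2L6 and, in mice, the E3 ligase HERC6, and is removed by USP18, which also restrains the interferon receptor. Isg15 was at 65.2, 57.1 and 50.7 CPM in OTII, 99.3, 79.9 and 111 with W131A alone, 86.2, 149 and 55.7 with Cbl-b loss alone and 23.4, 23.5 and 25.5 with both changes. In the thymus Isg15 was at 92.0, 75.7 and 78.7 CPM (OTII) and 102, 51.2 and 54.3 CPM (W131AOTII). The Cbl-b-/- OTII libraries overlapped both OTII and W131AOTII, while the group with both changes was below all other libraries. Isg15 fell by 2.00 on the log2 scale (SE 0.28, adjusted p = 0.000494) on loss of Cbl-b in W131A cells. Usp18, at 147 to 336 CPM in the periphery, fell by 0.99 on the log2 scale (SE 0.14, adjusted p = 0.000552). Ube2l6 had 23.1, 18.4 and 20.1 CPM in OTII, 49.2, 28.2 and 51.7 with W131A alone, 97.7, 96.0 and 61.5 with Cbl-b loss alone and 30.5, 21.9 and 19.5 with both changes. In the thymus Ube2l6 was at 10.4, 9.76 and 9.14 CPM (OTII) and 14.3, 9.45 and 11.3 CPM (W131AOTII). The Cbl-b-/- OTII libraries were the 3 highest of all, W131AOTII was above OTII without overlap, and the group with both changes overlapped OTII (log2 fold change 0.22, SE 0.23, adjusted p = 0.597 against OTII). Ube2l6 fell by 0.85 on the log2 scale (SE 0.23, adjusted p = 0.0293) on loss of Cbl-b in W131A cells, a call lost without either of W131AOTII replicates 1 and 3 or of Cbl-b-/-W131AOTII replicates 2 and 3 (adjusted p up to 0.139). Herc6, at 30.8 to 52.8 CPM in the periphery, was called in none of the 10 comparisons.

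Of the 5 sensors, 4 fell on loss of Cbl-b in W131A cells. Dhx58 (LGP2), which regulates the RNA helicase sensors, was at 116, 90.4 and 99.1 CPM in OTII, 147, 112 and 154 with W131A alone, 102, 112 and 79.0 with Cbl-b loss alone and 48.5, 49.6 and 53.2 with both changes. In the thymus Dhx58 was at 90.2, 105 and 96.97 CPM (OTII) and 118, 96.1 and 112 CPM (W131AOTII). The group with both changes did not overlap any other, and Dhx58 fell by 1.45 on the log2 scale (SE 0.15, adjusted p = 1.45e-05). Zbp1, a sensor of Z-form nucleic acid, was at 437, 378 and 359 CPM in OTII, 550, 370 and 537 with W131A alone, 603, 696 and 538 with Cbl-b loss alone and 335, 292 and 336 with both changes. In the thymus Zbp1 was at 395, 424 and 444 CPM (OTII) and 349, 338 and 313 CPM (W131AOTII). Levels were above OTII with Cbl-b loss alone and below it with both changes, without overlap. Zbp1 fell by 0.59 on the log2 scale (SE 0.14, adjusted p = 0.019) on loss of Cbl-b in W131A cells, a call lost without W131AOTII replicate 3 or either of Cbl-b-/-W131AOTII replicates 1 and 2 (adjusted p up to 0.0841). Eif2ak2 (PKR), which shuts down translation on binding double-stranded RNA, fell by 0.74 on the log2 scale (SE 0.18, adjusted p = 0.0199), a call lost without any of those same 3 libraries (up to 0.107). Ddx58 (RIG-I) fell by 0.46 on the log2 scale (SE 0.14, adjusted p = 0.0495), a call lost when any 1 of the 6 libraries was left out (up to 0.202). Ifih1 (MDA5) gave -0.60 (SE 0.19, adjusted p = 0.0535).

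Among membrane, GTPase and chaperone genes, Ifitm3 had the largest fall of the 38. Ifitm3, which blocks virus entry at endosomes, was at 9.71, 6.804 and 6.56 CPM in OTII, 17.0, 15.1 and 21.5 with W131A alone, 7.20, 9.96 and 5.22 with Cbl-b loss alone and 1.90, 1.49 and 1.98 with both changes. In the thymus Ifitm3 was at 5.99, 4.81 and 6.11 CPM (OTII) and 8.77, 3.88 and 5.43 CPM (W131AOTII). The 3 W131AOTII libraries were the highest of all 18 and the 3 with both changes the lowest, the latter with 162 counts in all. Ifitm3 fell by 3.31 on the log2 scale (SE 0.31, adjusted p = 4.91e-06). Rtp4, a receptor chaperone, had 158, 127 and 102 CPM in OTII, 178, 126 and 181 with W131A alone, 291, 244 and 253 with Cbl-b loss alone and 114, 96.8 and 98.4 with both changes. In the thymus Rtp4 was at 297, 142 and 191 CPM (OTII) and 167, 199 and 198 CPM (W131AOTII). Cbl-b-/- OTII was the highest peripheral group without overlap, and the value on loss of Cbl-b in W131A cells was -0.65 (SE 0.21, adjusted p = 0.0591). Mx1, a gene of the Mx GTPase family, fell by 1.54 on the log2 scale (SE 0.29, adjusted p = 0.00677), a call lost without Cbl-b-/-W131AOTII replicate 1 (adjusted p = 0.0502). Bst2 (tetherin), which holds budding virions, fell by 1.08 on the log2 scale (SE 0.27, adjusted p = 0.0234), a call lost without W131AOTII replicate 3 or either of Cbl-b-/-W131AOTII replicates 1 and 3 (up to 0.109).

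Parp9 and Parp14 are genes of the PARP family, and Dtx3l encodes a ubiquitin ligase that binds PARP9. Among these, only Parp14 fell on loss of Cbl-b in W131A cells (log2 fold change -0.71, SE 0.20, adjusted p = 0.0315). That call was lost when any 1 of the 6 libraries was left out (adjusted p up to 0.143). Parp9 was at 224 to 274 CPM in OTII and 351 to 355 CPM in Cbl-b-/- OTII. Dtx3l was called in none of the 10 comparisons.

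Of the 8 remaining genes, 6 fell on loss of Cbl-b in W131A cells. Slfn5, of the Schlafen family, was at 241, 229 and 238 CPM in OTII, 310, 184 and 326 with W131A alone, 155, 131.2 and 175 with Cbl-b loss alone and 88.4, 100 and 103 with both changes. In the thymus Slfn5 was at 158, 143 and 158 CPM (OTII) and 127, 142 and 188 CPM (W131AOTII). It was lower with Cbl-b loss alone than in OTII, and lower again with both changes, each without overlap, and fell by 1.49 on the log2 scale (SE 0.18, adjusted p = 9.23e-05) on loss of Cbl-b in W131A cells. Slfn1, a relative linked to T cell quiescence, had 407, 416 and 359 CPM in OTII, 385, 344 and 414 with W131A alone, 591, 617 and 622 with Cbl-b loss alone and 401, 366 and 337 with both changes. In the thymus Slfn1 was at 532, 314 and 440 CPM (OTII) and 317, 374 and 346 CPM (W131AOTII). The Cbl-b-/- OTII libraries were the highest of all 18, and loss of Cbl-b in W131A cells gave -0.05 (SE 0.15, adjusted p = 0.863). Ifi27l2a, which encodes a small hydrophobic protein, had 310, 227 and 211 CPM in OTII, 404, 323 and 439 with W131A alone, 589, 1342 and 318 with Cbl-b loss alone and 179, 202 and 218 with both changes. In the thymus Ifi27l2a was at 455, 348 and 454 CPM (OTII) and 301, 182 and 176 CPM (W131AOTII). The Cbl-b-/- OTII libraries ranged from 318 to 1340 CPM, and the value on loss of Cbl-b in W131A cells did not pass (log2 fold change -0.96, SE 0.34, adjusted p = 0.0806).

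The other 5 of the 8 fell: Ifi44 by 1.47 on the log2 scale (SE 0.31, adjusted p = 0.0104), the secreted glycoprotein gene Lgals3bp by 1.21 on the log2 scale (SE 0.15, adjusted p = 9.48e-05), Xaf1, a partner of inhibitors of apoptosis, by 0.90 on the log2 scale (SE 0.18, adjusted p = 0.00822), Trim30a by 0.66 on the log2 scale (SE 0.16, adjusted p = 0.0226) and Ifi35 by 0.62 on the log2 scale (SE 0.18, adjusted p = 0.0365). The Trim30a call was lost when any 1 of the 6 libraries but W131AOTII replicate 2 was left out (adjusted p up to 0.107), and that of Ifi35 when any but W131AOTII replicate 1 was (up to 0.137). In a fit of the 2 groups alone the Ifi44 call was lost (adjusted p = 0.124). For 18 of the 28 genes that fell, the call held whichever of the 6 libraries was left out, with 19 to 25 called in those fits.

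The ranking sets the single changes against each other, as W131AOTII minus Cbl-b-/- OTII, which share no library. Ifitm3 stood at its top and Ube2l6 at its bottom. Of the 6 OAS and RNA-degrading genes 3 were called, all higher with W131A alone, and of the 3 nucleotide enzyme genes 2. Higher with W131A alone were 9 of the 38 (6.56% of all genes were): Ifitm3, Oas3, Oas2, Oasl1, Rsad2, Slfn5, Lgals3bp, Cmpk2 and Dhx58. Lower were 4 (5.98% of all genes were): Ube2l6, Ifit1bl1, Rtp4 and Slfn1. In either direction 34.2% of the 38 were called, and 12.5% of all genes. At the top, the difference was 1.26 for Ifitm3 (SE 0.28, adjusted p = 0.00868), 1.08 for Oas3 (SE 0.22, adjusted p = 0.005), 1.02 for Oas2 (SE 0.28, adjusted p = 0.0261) and 0.92 for Oasl1 (SE 0.18, adjusted p = 0.00431). At the bottom, it was -0.98 (SE 0.23, adjusted p = 0.0105) for Ube2l6, -0.95 (SE 0.34, adjusted p = 0.0737) for Ifi27l2a (-0.21 without Cbl-b-/- OTII replicate 2), -0.76 (SE 0.19, adjusted p = 0.015) for Ifit1bl1 and -0.70 (SE 0.21, adjusted p = 0.0369) for Rtp4. For Bst2 and Isg15, in the middle, the 2 changes alone gave the same values against OTII, 0.43 and 0.43 for Bst2 and 0.75 and 0.75 for Isg15, none of which passed.

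The calls of Rsad2, Oas3, Oasl1, Ifitm3 and Slfn5 held whichever of the 6 libraries was left out. All 4 lower calls were lost without W131AOTII replicate 2, the library with the most B cell and myeloid marker RNA, when 12 genes were called higher and 0 lower (adjusted p of Ube2l6 0.0702, of Slfn1 0.0646). The Ifit1bl1 call was also lost without Cbl-b-/- OTII replicate 1 (up to 0.101), and the Rtp4 call without any 1 of the 6 (up to 0.199). Among the higher calls, Oas2 was lost without W131AOTII replicate 1 or either of Cbl-b-/- OTII replicates 2 and 3 (up to 0.0872) and Lgals3bp without W131AOTII replicate 3 (0.0602). Cmpk2 was lost without either of W131AOTII replicates 1 and 3 or of Cbl-b-/- OTII replicates 1 and 2 (up to 0.124), and Dhx58 without either of W131AOTII replicates 1 and 3 or of Cbl-b-/- OTII replicates 1 and 3 (up to 0.113). Without the 3 libraries that stood apart, 9 were higher and 0 lower, 4 being lower at an unadjusted p under 0.05. DESeq2 on all libraries called 11 higher and 5 lower, against 1432 and 1284 of 29797 genes. Offsets for GC content and length ended the calls of Ifit1bl1, Oas2, Dhx58, Rtp4 and Slfn1.

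**Figure D4:**
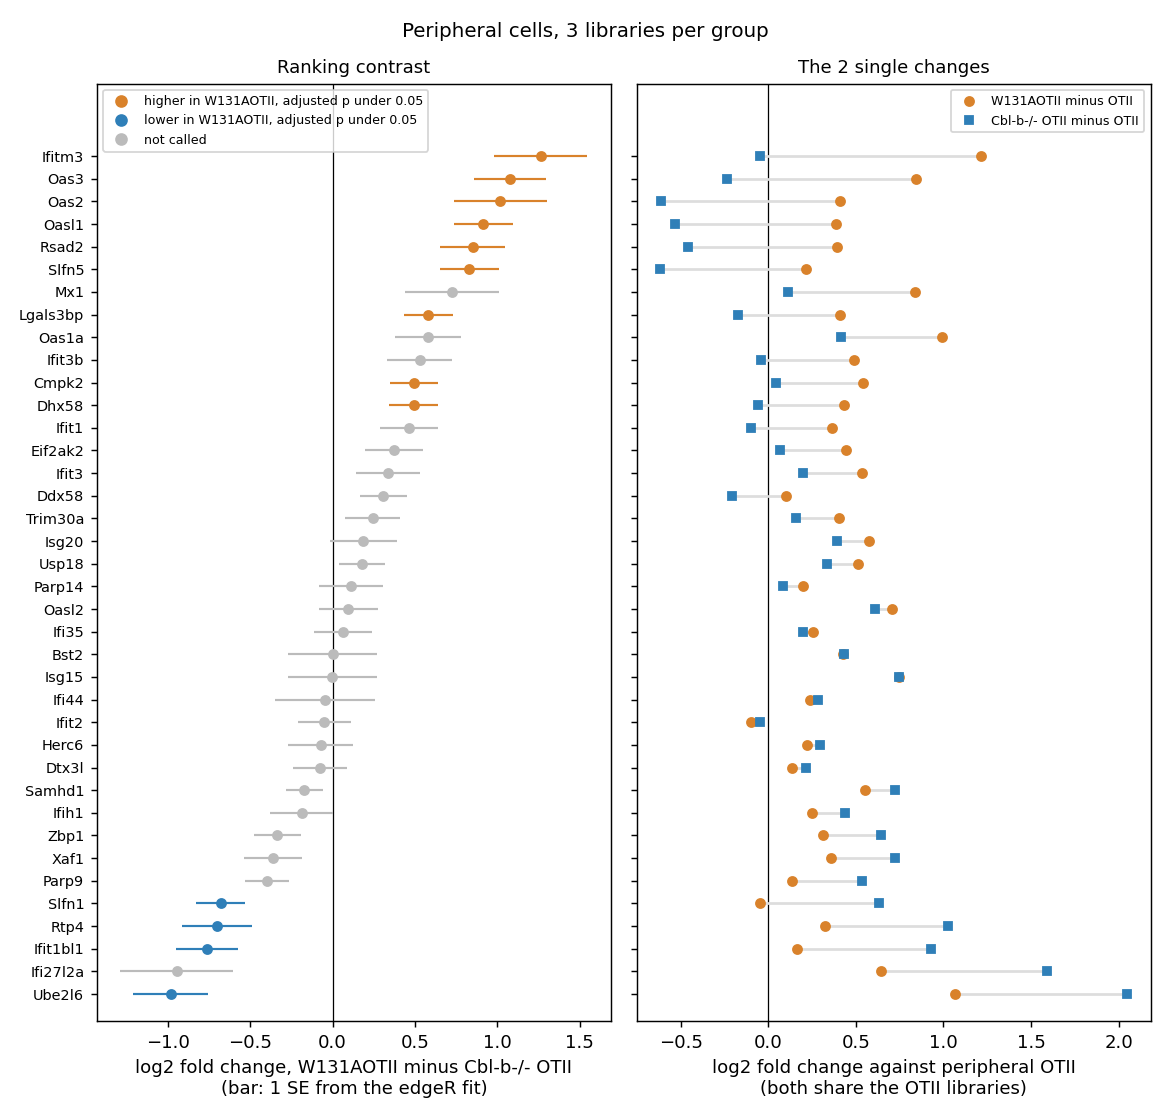
Left, log2 fold change of W131AOTII minus Cbl-b-/- OTII for each of the 38 genes (points; bars, 1 SE of the edgeR fit; colour, the 9 higher and 4 lower calls). Right, the effects of W131A and of Cbl-b loss against peripheral OTII, which share the OTII libraries; Ifitm3 has 1.22 with W131A and -0.05 on loss of Cbl-b, and Ube2l6 has 1.07 and 2.05.

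With W131A alone, Ube2l6, Ifitm3, Oas1a, Oas3 and Samhd1 rose against OTII, 5 of the 38 against 1.68% of all genes. Of the 38, 0 fell, against 0.25%, with 0 lower also at an unadjusted p under 0.05 and by DESeq2. The median was 0.41, against 0.00 over all genes, and 36 of 38 fold changes were above 0. The rises were 1.22 for Ifitm3 (adjusted p = 0.0236), 1.07 for Ube2l6 (0.0147), 0.99 for Oas1a (0.0104), 0.84 for Oas3 (0.0487) and 0.55 for Samhd1 (0.00876). Without OTII replicate 2 or 3 all 5 calls were lost, with adjusted p in fits that left out a library of up to 0.0629 for Samhd1, 0.0642 for Oas1a, 0.0965 for Ube2l6, 0.145 for Ifitm3 and 0.226 for Oas3. In these fits 0 genes were called by edgeR, and 14 and 13 had an unadjusted p under 0.05. The Samhd1 call was also lost without OTII replicate 1, that of Oas3 without OTII replicate 1, W131AOTII 1 or W131AOTII 3, that of Ube2l6 without W131AOTII 1 or 3, and that of Ifitm3 without W131AOTII 3. Without W131AOTII replicate 1, 2 or 3, 3, 8 and 2 genes were called, and the median without replicate 2 was 0.57. DESeq2 called 8 genes, all higher, against 403 higher and 67 lower of 29797 genes. Of 6 NK cell markers, 2 (Eomes and Klrd1) rose in the same comparison, and the 6 summed to 155, 89.3 and 39.2 CPM with W131A alone against 30.7 to 33.0 CPM in OTII, whose part in these values was not tested.

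With Cbl-b loss alone, 10 of the 38 rose (5.22% of all genes rose): Ube2l6, Ifi27l2a, Rtp4, Ifit1bl1, Samhd1, Xaf1, Zbp1, Slfn1, Oasl2 and Parp9. Slfn5 fell, 1 of 38 against 2.99% of all genes. The median was 0.21, against 0.04 over all genes. Ube2l6 rose by 2.05 on the log2 scale (SE 0.24, adjusted p = 6.05e-05), Ifi27l2a by 1.59 on the log2 scale (SE 0.35, adjusted p = 0.0124), Rtp4 by 1.02 on the log2 scale (SE 0.21, adjusted p = 0.0094), Ifit1bl1 by 0.93 on the log2 scale (SE 0.19, adjusted p = 0.00861) and Zbp1 by 0.65 on the log2 scale (SE 0.14, adjusted p = 0.0123). Slfn1, Xaf1, Oasl2 and Parp9 rose by 0.63, 0.72, 0.61 and 0.53, and Slfn5 fell by 0.62 on the log2 scale (SE 0.18, adjusted p = 0.0394). Without Cbl-b-/- OTII replicate 2, at 1342 CPM, the Ifi27l2a value was 0.86. The calls of Ube2l6 and Samhd1 held whichever library was left out. Without OTII replicate 2 or 3, 3 and 2 genes were called, and the calls of Ifit1bl1 (up to 0.0743), Zbp1 (0.1), Ifi27l2a (0.0867), Slfn1 (0.135), Xaf1 (0.143), Parp9 (0.143), Oasl2 (0.257) and Slfn5 (0.141) were lost in both. Leaving out Cbl-b-/- OTII replicate 2 also lost the last 7 of these, all but that of Ifit1bl1, and leaving out its replicate 1 those of Xaf1, Parp9, Oasl2 and Slfn5. The Rtp4 call was lost without OTII replicate 3 (0.0904), that of Slfn5 also without OTII replicate 1, and that of Oasl2 in every fit that left out a library. Without Cbl-b-/- OTII replicate 1, 2 or 3, 7, 4 and 11 were called. Without the 3 libraries that stood apart, 6 were called, all higher.

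The effect of losing Cbl-b was lower in W131A cells than in OTII cells for each of the 38 genes. In the test of that difference (an interaction term), 22 were called, against 0.592% of all genes in that direction, and 0 in the other, against 0.0395%. At an unadjusted p under 0.05, 35 were lower and 0 higher, a count not made over all genes. DESeq2 called 26 lower and 0 higher, against 205 and 22 of 29797 genes. The median term was -1.36, against -0.02 over all genes. The smallest adjusted p belonged to Ube2l6 (-2.89, SE 0.33, adjusted p = 0.000204), Ifit3b (-2.44, SE 0.28, adjusted p = 0.000204), Oasl2 (-2.25, SE 0.26, adjusted p = 0.000204), Ifit3 (-2.24, SE 0.28, adjusted p = 0.000293) and Cmpk2 (-1.66, SE 0.21, adjusted p = 0.000293). The 16 genes that did not pass had terms from -1.76 (Ifi44) to -0.26 (Ddx58). Of the 22 calls, 17 held whichever of the 12 libraries was left out. The Oasl1 call was lost without OTII replicate 2 or 3 (adjusted p up to 0.074), as were those of Ifi27l2a (also without Cbl-b-/-W131AOTII replicate 1, up to 0.0608) and Lgals3bp (also without that library or W131AOTII replicate 3, up to 0.0851). Parp9 was lost in 7 of the 12 fits (up to 0.115) and Samhd1 in 10 (up to 0.12).

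**Figure D5:**
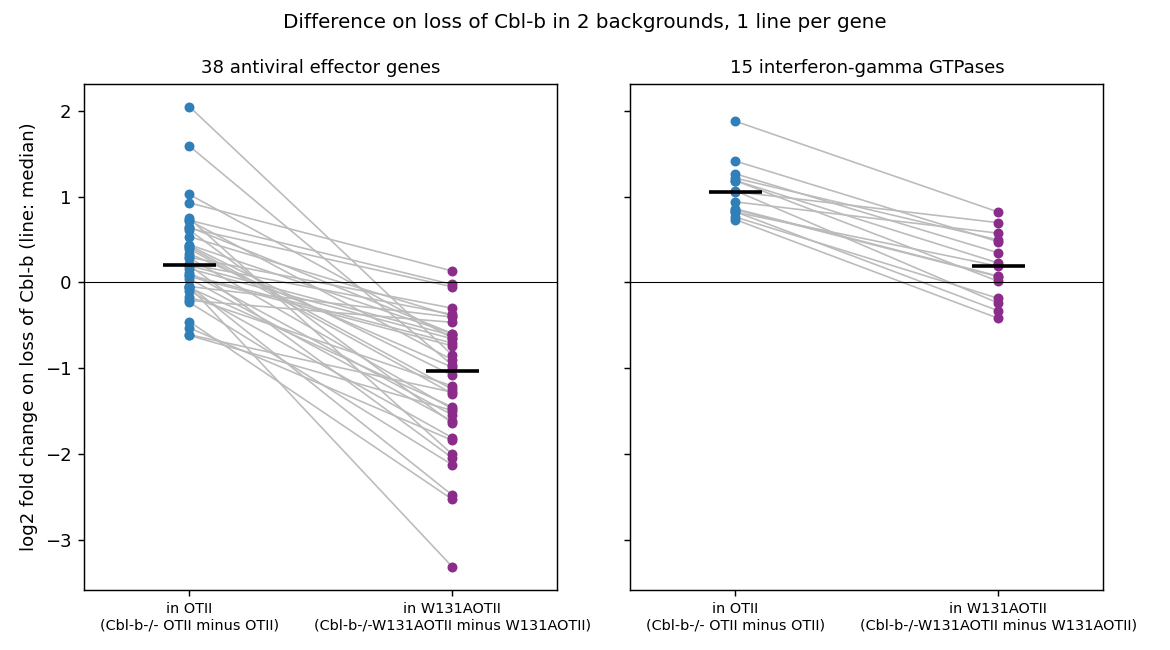
Log2 fold change on loss of Cbl-b in OTII cells (left points) and in W131AOTII cells (right points), 1 line per gene and a black bar at the median, for the 38 antiviral genes and for 15 interferon-gamma-induced GTPases. Every antiviral gene lies lower on the right (medians 0.21 and -1.03), and the GTPases have medians of 1.06 and 0.19.

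In cells without Cbl-b, W131A went with lower levels: Cbl-b-/-W131AOTII minus Cbl-b-/- OTII had 24 of the 38 lower, against 1.09% of all genes, and 0 higher, against 0.802%. At an unadjusted p under 0.05, 33 were lower and 0 higher, a count not made over all genes. DESeq2 called 27 lower and 0 higher, against 404 and 282 of 29797 genes. The median was -0.87, against -0.02 over all genes. Ifit3b (-1.95), Ifit3 (-1.71), Oasl2 (-1.54), Rsad2 (-1.68) and Ube2l6 (-1.83) had the smallest adjusted p, from 2.63e-05 to 0.000142. This comparison shares its Cbl-b-/-W131AOTII libraries with the loss of Cbl-b in W131A cells. Library size alone turned the split of all genes from 122 higher and 165 lower to 186 and 116.

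In the thymus, Samhd1 was the only gene of the 38 called with W131A. It fell by 0.61 on the log2 scale (SE 0.11, adjusted p = 0.00365), 1 of 38 against 1.04% of all genes, and 0 rose, against 1.73%. DESeq2 called 1 gene in each direction, against 494 higher and 307 lower of 29797 genes. At an unadjusted p under 0.05, 1 was higher and 5 lower. The median of the 38 was 0.10, against 0.01 over all genes. In a fit of the 2 thymic groups alone the Samhd1 call was lost (adjusted p = 0.122), and without thymic OTII replicate 2 there were 2 calls. The W131A effect on Samhd1 was 0.55 in the periphery and -0.61 in the thymus. The test of that difference gave 1.17 (SE 0.16, adjusted p = 0.000865), 1 of 38 against 0.296% of all genes in that direction, and 0 against 0.0855% in the other, where an unadjusted p under 0.05 and DESeq2 also gave 0. A difference between the sites is not shown for the other 37, Ifitm3 among them (log2 fold change 1.12, SE 0.40, adjusted p = 0.354).

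Between sites in OTII cells, 9 of the 38 were higher in the periphery (7.75% of all genes were): Ifit1bl1, Ube2l6, Ifit3, Ifit3b, Ifit2, Samhd1, Cmpk2, Slfn5 and Parp14. Rtp4 was lower, 1 of 38 against 10.6% of all genes. Ifit1bl1 had the largest difference, 1.54 (SE 0.19, adjusted p = 1.2e-05), followed by Ube2l6 at 1.07 (SE 0.24, adjusted p = 0.00304) and Ifit3 at 1.02 (SE 0.20, adjusted p = 0.001). The Rtp4 call (log2 fold change -0.70, SE 0.21, adjusted p = 0.0249) was lost without thymic OTII replicate 1 or peripheral OTII replicate 2 or 3 (adjusted p up to 0.228), and its value was -0.37 without the thymic library. The Parp14 call was lost in every fit but that without thymic OTII replicate 2 (up to 0.214), and the Slfn5 call in every fit but that without thymic OTII replicate 1 (up to 0.068). Cell markers differed between the sites too, with 7 of 8 B cell and 2 of 11 myeloid markers higher in the periphery. Lower there were 4 of 5 immature thymocyte markers, 3 of 6 NK cell markers (1, Klrd1, was higher), 2 of the 3 plasmacytoid dendritic cell markers tested, 3 of 6 CD4 T cell markers and 1 of 2 CD8 T cell markers. In OTII, NK cell markers summed to 30.7 to 33.0 CPM in the periphery and 206 to 577 CPM in the thymus, plasmacytoid dendritic cell markers to 224 to 256 and 888 to 1370 CPM, and B cell markers to 2180 to 2540 and 674 to 852 CPM. The plasmacytoid sums include Bst2, which is also of the 38, at 106 to 124 and 103 to 123 CPM, so the sites differ in other genes of that list. Of its 6 genes, 3 had no count in each thymic OTII library and 1 had none in each peripheral one. The higher thymic sum thus does not hold for the list as a whole. A marker sum does not tell which cells made the RNA. The part of other cells in the values of the 38 genes was not tested.

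The genes that act above the effectors were taken from lists. Of 18 type I interferon genes, 15 had no count in any library, and Ifnab, Ifnk and Ifnz had 7, 7 and 11 counts over all 18. Ifng, the type II interferon, had 108 counts in all, at 0, 0.0684 and 0 CPM in OTII, 0, 0.0321 and 0.0318 with W131A alone, 0.150, 0.682 and 0.307 with Cbl-b loss alone and 0.498, 0.149 and 0.347 with both changes. In the thymus Ifng was at 0.236, 0.196 and 0.747 CPM (OTII) and 0.232, 0.201 and 0.202 CPM (W131AOTII). Within the periphery both Cbl-b-/- groups were above the groups with Cbl-b, without overlap, while the thymic libraries, which have Cbl-b, overlapped them. Ifng rose on loss of Cbl-b in OTII cells (log2 fold change 3.81, SE 1.03, adjusted p = 0.0292) and in W131A cells (log2 fold change 3.76, SE 1.01, adjusted p = 0.0286), and with both changes against OTII (log2 fold change 3.63, SE 1.02, adjusted p = 0.0364). The receptor subunits Ifnar1 (219 to 301 CPM in the periphery) and Ifnar2 (101 to 129 CPM) were called in none of the 10 comparisons. Of 8 receptors and kinases tested, 2 fell with Cbl-b loss alone, while 2.99% of all genes fell. These were Tyk2 (log2 fold change -0.70, SE 0.18, adjusted p = 0.0223) and Jak1 (log2 fold change -0.50, SE 0.15, adjusted p = 0.045). On loss of Cbl-b in W131A cells none of the 8 passed, while 6.08% of all genes fell and 3.18% rose.

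Of 9 transcription factors, 3 fell on loss of Cbl-b in W131A cells (Irf7, Irf8 and Stat2) and the other 6 did not pass. Of all genes, 6.08% fell in that comparison. Irf7, which amplifies the interferon response, was at 531, 375 and 374 CPM in OTII, 653, 443 and 617 with W131A alone, 521, 563 and 423 with Cbl-b loss alone and 208, 204 and 272 with both changes. The libraries with both changes were below all other peripheral ones. Irf7 fell by 1.33 on the log2 scale (SE 0.19, adjusted p = 0.000473) on loss of Cbl-b in W131A cells, and its interaction term was -1.56 (SE 0.26, adjusted p = 0.0045). With Cbl-b loss alone Irf1 rose by 0.46 on the log2 scale (SE 0.11, adjusted p = 0.0161) and Irf9 by 0.38 on the log2 scale (SE 0.11, adjusted p = 0.04). Of 8 genes that restrain the pathway, 4 fell on loss of Cbl-b in W131A cells (Ptpn6, Nlrx1, Socs3 and Ptpn11). Of 14 nucleic acid sensing genes tested, 5 fell there (Myd88, Adar, Tlr3, Tmem173 and Mavs). Both counts stand against the same 6.08% of all genes.

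The 15 GTPases of the GBP and IRG families, typical targets of interferon-gamma, followed another order. With Cbl-b loss alone all 15 rose (5.22% of all genes did), with a median of 1.06. In the ranking contrast all 15 were lower with W131A than with Cbl-b loss (5.98% of all genes were), with a median of -0.99. Igtp rose by 1.19 on the log2 scale (SE 0.11, adjusted p = 1.06e-05), Gbp3 by 1.26 on the log2 scale (SE 0.13, adjusted p = 2.52e-05) and Tgtp1 by 1.41 on the log2 scale (SE 0.17, adjusted p = 6.31e-05). On loss of Cbl-b in W131A cells, 3 rose (3.18% of all genes did), 1 fell (6.08% did) and the median was 0.19. Against OTII, cells with both changes had 2 higher (Gbp3 and Gbp4) and 0 lower, while 3.87% of all genes were higher and 3.52% lower. The interaction term was called negative for 7, and for 0.592% of all genes. No test compared these genes with the 38.

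B cell and myeloid markers were also called lower in the group that carries both changes, most often against W131AOTII. Against W131AOTII, 7 of 8 B cell and 6 of 11 myeloid markers were lower there, while 6.08% of all genes were. W131AOTII includes replicate 2, with 4990 CPM of B cell and 769 CPM of myeloid markers. Its replicates 1 and 3 had 2260 and 2390 CPM of B cell and 130 and 106 CPM of myeloid markers. B cell markers summed to 1630 to 1790 CPM in cells with both changes, 2260 to 4990 with W131A alone, 1880 to 2400 with Cbl-b loss alone and 2180 to 2540 in OTII, and Ighm, Cd74 and Igkc were the most abundant. Myeloid markers, led by H2-Ab1, Lyz2 and Cd68, summed to 40.5 to 45.5 CPM, 106 to 769, 100 to 204 and 141 to 145 in the same order. Of 6 plasmacytoid dendritic cell markers 3 were tested and 2 were lower, Tcf4 and Bst2, which is also of the 38; Siglech had 60 counts over all 18 libraries and none in that group. CD4 T cell markers summed to 13300 to 14600 CPM, against 15000 to 23200 in the other peripheral groups, with 1 of 6 (Cd4) lower. Of the NK cell markers 0 of 6 were called, and of the CD8 T cell, immature thymocyte and tested erythroid markers 1 of 2, 1 of 5 (Cd8a in both) and 0 of 2. These calls are against W131AOTII. Against OTII, 1 of 8 B cell and 1 of 11 myeloid markers were lower with both changes (3.52% of all genes were). Against Cbl-b-/- OTII, 0 of 8 and 4 of 11 were lower (1.09% of all genes were).

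Without the 3 libraries that stood apart, 29 of the 38 fell on loss of Cbl-b in W131A cells, with a median of -1.18, and the interaction was called for 26. The part of other cells in these results was not tested.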

How the data were processed

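The deposited table holds raw read counts per Ensembl gene, 1 column per library, and all 55536 identifiers matched GENCODE mouse release M21. The submitters' processing notes name STAR 2.7.2, GRCm38 and DESeq2, and per the labels' protocols reads were single-end, of 50 bases. The counting step, annotation and strand setting were not given in the sources used here. These 38 genes, the other lists and the rules were chosen with earlier results of these data known.

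All 18 libraries entered 1 edgeR 4.0.16 fit (R 4.3.3) with a mean per group, filterByExpr, TMM factors, a robust quasi-likelihood F test with 12 residual degrees of freedom, and Benjamini-Hochberg adjustment over 15204 genes in each of 10 comparisons, at 0.05. The fit was tested on simulated counts. Log2 deviations used a prior count of 2. No pair of libraries within a group agreed within sampling noise; pairs across groups were not compared. How mice map to libraries is not stated, so p-values measure only the spread between libraries, which may be technical. Peripheral and thymic libraries of a genotype may come from the same mice, and the tests between sites did not pair them. Values in every library are printed for the 8 genes called with the smallest adjusted p on loss of Cbl-b in W131AOTII, the 5 in each other comparison, and the 4 at each end of the ranking. Called pathway genes are named, at most 5 per list, except 1 that is not reported here; Isg15, Ifnar1, Ifnar2, Ifnab, Ifnk, Ifnz and Siglech were named after their values were seen. Alternatives were RLE factors, library size alone, no filter on low counts, DESeq2 1.42.0, offsets for GC content and length, only the groups compared, a replicate block, and leaving out libraries.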

Additional observations from a re-analysis of the deposited data

Results flagged for a closer look

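The effect of losing Cbl-b differed between OTII and W131AOTII cells for 22 of the 38 genes in the interaction test (edgeR, adjusted p under 0.05). The log2 terms were -3.26 for Ifitm3, -2.89 for Ube2l6, -2.75 for Isg15, -2.55 for Ifi27l2a, -2.44 for Ifit3b, -2.25 for Oasl2, -2.24 for Ifit3 and -2.07 for Rsad2. They were -1.89 for Oas3, -1.71 for Ifit1, -1.69 for Isg20, -1.67 for Rtp4, -1.66 for Cmpk2, -1.66 for Oas1a and -1.62 for Xaf1 in the next genes, and -1.39 for Dhx58, -1.32 for Usp18, -1.31 for Oasl1, -1.24 for Zbp1, -1.04 for Lgals3bp, -0.92 for Parp9 and -0.75 for Samhd1 in the last. The effect of W131A differed between periphery and thymus for Samhd1, by 1.17 on the log2 scale.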

How the results depend on the processing

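Out of the 38 genes, the number called stayed within 1.5 times its value in all 10 comparisons under RLE factors, library size alone, the replicate block and the offsets for GC content and length. Calls for W131A in the periphery (5) became 13 with no filter on low counts, 8 with DESeq2, 8 without the 3 libraries that stood apart and 0 to 8 on leaving out 1 library. Calls for loss of Cbl-b in OTII (11) became 6 without those 3 libraries and 2 to 11 on leaving out 1. For both changes against OTII (17) they became 26 with only the groups compared. For W131A in the thymus (1) they became 2 with no filter, 2 with DESeq2, 0 with only the groups compared (5 at an unadjusted p under 0.05) and 1 to 2 on leaving out 1 library. For its difference between the sites (1) they became 5 with no filter and 2 with only the groups compared. Leaving out 1 library gave 19 to 25 calls for loss of Cbl-b in W131AOTII, 18 to 26 for W131A without Cbl-b, 9 to 12 in the ranking contrast, 14 to 15 for both changes, 17 to 24 for the interaction and 7 to 9 for periphery against thymus. With the replicate number as a block, 29 were called for loss of Cbl-b in W131AOTII, 11 for its loss in OTII and 23 for the interaction. Of 45 same-numbered pairs of libraries, 5 had deviations correlated over 0.1 (from -0.30 to 0.21). These correlations cannot tell whether libraries share mice, and pairs with unlike numbers were not compared. Of 450 alternative values for 50 results of named genes, 424 kept their side of the threshold, 25 lost a call and 1 gained one. A change of direction was counted only where either value was called, and 0 were found. These results were chosen for the smallest adjusted p or the ends of the ranking in these same data, so their share does not describe all calls. Over all genes, the offsets turned 588 higher and 535 lower into 511 and 893 for both changes, 263 and 158 into 272 and 299 in the thymus, and 1179 and 1606 into 2527 and 1617 for periphery against thymus. The causes were not tested.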
